A study of Mus musculus with 15 samples.

Results

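Hepatocytes sorted as 4n-top were compared with hepatocytes sorted as 2n-whole, across all genes that passed a filter on low counts. The comparison used 7 of the 15 libraries of the study, chosen by their labels: 3 libraries of 4n-top cells from mice 2, 3 and 4, and 4 libraries of 2n-whole cells from mice 1, 2, 3 and 4. Libraries with the same subject number came from the same animal, so mice 2, 3 and 4 gave pairs and 2n-whole of mouse 1 had no partner. The 4n-top library of mouse 1 was left out by the study for poor RNA quality and was not analysed here. All libraries were from liver hepatocytes of adult male WT mice of the C57BL/6JJcl strain. Cells were dispersed by perfusion with collagenase, stained with a Hoechst dye, which binds DNA, and gated as live singlets before the ploidy gates. The 2n-whole gate held cells with the lowest Hoechst signal. The 4n-top gate held the part of the 4n cells with the higher peak of the Hoechst signal, which enriches for cells with a single 4n nucleus and still contains binucleated cells. Only 1 round of sorting was used for the sequenced 4n-top cells. After sorting, 2n cells were pelleted with a stronger and longer spin than 4n cells, so the spin and the population cannot be told apart in any result given here.

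Adult mouse hepatocytes are diploid or polyploid. Polyploid cells arise when a hepatocyte copies its DNA and does not complete division, and they carry their genome either in a single larger nucleus or in a pair of nuclei. Hepatocytes also differ by position, since the enzymes of a cell near the portal vein (periportal) are not those of a cell near the central vein (pericentral). Pericentral cells respond to Wnt signals and hold most cytochrome P450, bile acid and glutamine synthesis, whereas periportal cells lead in gluconeogenesis and urea synthesis.

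Of 55984 gene symbols, 17488 were tested with edgeR's quasi-likelihood F test, with the population and the mouse in a model of all 15 libraries. A gene was called a DEG at an adjusted p-value under 0.05 (Benjamini-Hochberg over all tested genes) and an absolute log2 fold change above 0.5. By this rule 168 genes were called, which is 0.961% of the tested genes. Of these, 77 (0.44% of the tested genes) were higher in 4n-top and 91 (0.52%) were lower. The unadjusted p-value was under 0.05 for 1977 genes. The call depended on the mouse term: without it 2 genes were called, Rtn4 and Tbx3. It also depended on mouse 4, without which 98 genes were called, 90 of them among the 168, and all 168 kept their sign. Levels are given as CPM, counts scaled to the library size after TMM normalization, and a count of 3 in a library corresponded to between 0.0693 and 0.117 CPM.

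**Figure D1:**
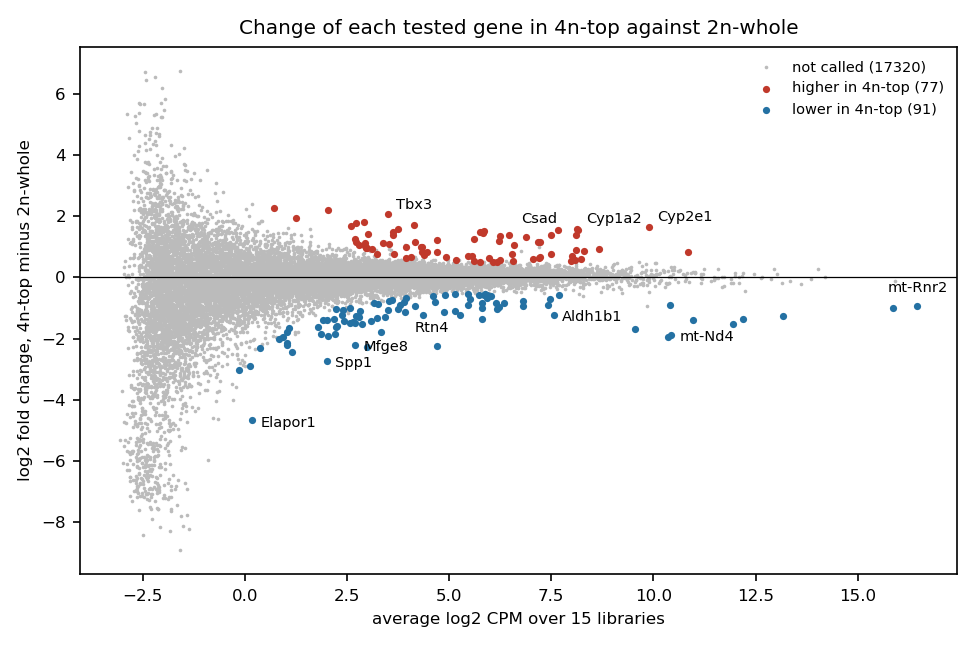
Each point is 1 of the 17488 tested genes, with the average log2 CPM over all 15 libraries on the x axis and the log2 fold change of 4n-top over 2n-whole on the y axis. The 77 genes called higher are red, the 91 called lower are blue, and genes with large changes that were not called lie at low average levels.

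The called genes changed by a median of 1.02 (log2) upwards and -1.24 downwards, whereas the median over all tested genes was 0.00019. Among the 77 higher genes, 40 changed by more than 1 on the log2 scale, and among the 91 lower genes 57 did. The change had the same sign in all 3 paired mice for 75 of the 77 higher and for 91 of the 91 lower genes. All 3 4n-top libraries lay above all 4 2n-whole libraries for 42 of the 77 higher genes, a pattern that 4.82% of all tested genes showed. All 3 lay below all 4 for 68 of the 91 lower genes, a pattern shown by 4.39% of all tested genes. The called genes were expressed at higher levels than the tested genes as a whole, with a median CPM over the 7 libraries of 40.6 for the higher, 14.1 for the lower and 4.38 for all. Protein-coding genes made up 84.4% of the higher, 86.8% of the lower and 72.0% of all tested genes.

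The gene with the smallest p-value was Csad (chr15:102085432-102113498, minus strand, GRCm39), which encodes cysteine sulfinic acid decarboxylase, an enzyme of taurine synthesis. Its level in 2n-whole was 35.7 CPM in mouse 1, 96.1 in mouse 2, 99.1 in mouse 3 and 91.1 in mouse 4. In 4n-top it was 187 CPM in mouse 2, 257 in mouse 3 and 206 in mouse 4. Every 4n-top library was therefore above every 2n-whole library, and 2n-whole of mouse 1 stood far below the other 2n-whole libraries. The log2 fold change was 1.17 (SE 0.111, adjusted p = 9.50e-07, edgeR), a 2.25-fold difference. None of the other 15 tested genes of taurine and cysteine metabolism was called, and the list had a median change of 0.034. With Csad, the unadjusted p was under 0.05 for 6 higher and 0 lower of the 16, where 11.3% of all tested genes passed. Since 0.961% of all tested genes were called, 0 calls among the other 15 do not show that these were unchanged.

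Promoters of both directions were examined in the RefSeq promoter table (GRCm38.p6), in windows from 250 bases before to 50 bases after each start site, with motifs searched on both strands. A promoter was found for 54 of the 77 higher genes, 56 of the 91 lower genes and 10916 of the tested genes. The TATA box (TATAAA) was present in 24.1% of the higher, 19.6% of the lower and 7.87% of all tested promoters. The letters AAAGTCC, part of the binding motif of the hepatocyte factor HNF4A, were present in 14.8%, 3.57% and 4.2%, respectively. CTTTGAT, a TCF/LEF motif, was found in 5.56%, 3.57% and 2.55%, CACGTG (the E-box) in 11.1%, 5.36% and 9.84%, and CCAAT in 46.3%, 39.3% and 38.8%. These shares describe letters in fixed windows and were not tested. Only these exact letters were searched, so other forms of a TATA box were not counted. The stretch before the start site is shown for 3 of the genes with the smallest p-values, to set a promoter with TATAAA beside others without these letters. Each was located by an exact match in GRCm39, motif matches are in capitals, and the sequences run from 5′ to 3′ on the gene's strand. Csad (chr15:102113488-102113607, minus strand) holds a CCAAT 75 bases before the start site. Cyp1a2 (chr9:57590957-57591058, minus strand) holds a TATAAA 29 bases before it, and Mfge8 (chr7:78798809-78798928, minus strand) holds none of the 5 motifs. The ends of these windows nearest the genes overlap the first annotated exon in GENCODE M39 by 11, 30 and 17 bases. The Cyp1a2 stretch was cut at position -19 from the RefSeq start site, and its TATAAA lies within the 30 bases of overlap.
Csad: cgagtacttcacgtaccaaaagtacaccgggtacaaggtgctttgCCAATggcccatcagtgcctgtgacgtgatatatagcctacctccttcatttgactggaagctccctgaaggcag
Cyp1a2: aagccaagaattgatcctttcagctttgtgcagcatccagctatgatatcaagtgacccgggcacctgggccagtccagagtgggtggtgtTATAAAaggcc
Mfge8: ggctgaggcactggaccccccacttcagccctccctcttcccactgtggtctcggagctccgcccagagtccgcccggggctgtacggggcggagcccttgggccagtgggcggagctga

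Genes of the hepatocyte layer around the central vein were higher in 4n-top. Of 21 tested genes of this layer, 11 were called higher, 0 were called lower and 10 did not pass the test. Over all tested genes, 0.44% were called higher and 0.52% lower. The fitted change was above 0 in all 21, with a median of 0.84 against 0.00019 over all tested genes. The summed level of the list was 1186, 1558, 1817 and 1824 CPM in 2n-whole of mice 1 to 4 and 1952, 4849 and 4281 CPM in 4n-top of mice 2, 3 and 4. All 4n-top libraries were above all 2n-whole libraries, but 4n-top of mouse 2 was closer to 2n-whole than to the other 4n-top libraries. Without mouse 3, 7 of the 11 were called, and without the mouse term 1 was.

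Cyp1a2 (chr9:57584196-57590986), a P450 enzyme of caffeine and drug oxidation, had 124, 96.2, 123 and 144 CPM in 2n-whole of mice 1 to 4. In 4n-top it had 193, 463 and 495 CPM in mice 2, 3 and 4. The groups did not overlap, and mice 3 and 4 rose further than mouse 2. The log2 fold change was 1.58 (SE 0.164, adjusted p = 2.23e-06), or 2.98-fold.

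Cyp2e1 (chr7:140343652-140355167), the P450 enzyme of ethanol and paracetamol oxidation, had 264, 292, 513 and 429 CPM in 2n-whole of mice 1 to 4. It had 448, 2188 and 1637 CPM in 4n-top of mice 2, 3 and 4. The groups overlapped, because 4n-top of mouse 2 lay below 2n-whole of mouse 3, although it was above 2n-whole of its own mouse. The log2 fold change was 1.63 (SE 0.204, adjusted p = 1.42e-05).

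Tbx3, a Wnt-responsive transcription factor of pericentral hepatocytes, changed most among the 12 higher genes with the smallest p-values. It had 1.87, 3.17, 5.22 and 4.94 CPM in 2n-whole of mice 1 to 4, and 9.49, 22.4 and 19.5 CPM in 4n-top of mice 2, 3 and 4. The groups did not overlap, and the log2 fold change was 2.08 (SE 0.225, adjusted p = 2.55e-06), or 4.24-fold. Rnf43, a membrane ubiquitin ligase that limits Wnt signalling, had between 11.1 and 17.2 CPM in 2n-whole and between 20.9 and 30.7 CPM in 4n-top, with no overlap (log2 fold change 0.83, adjusted p = 0.00179, lost without mouse 4). Other Wnt targets of the list did not pass the test: the log2 fold change was 0.94 for Axin2, a negative regulator of the pathway (adjusted p = 0.246), and 1.86 for Lgr5, a receptor for R-spondins (adjusted p = 0.25).

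The other called members were Cyp2a5 (a coumarin hydroxylase), Gulo (the last enzyme of ascorbate synthesis), Oat (ornithine aminotransferase), Ahr (the dioxin receptor), Slc13a3 (a dicarboxylate transporter), Slc1a2 (a glutamate transporter) and Lhpp (a phosphatase). Oat had 45.8, 60.8, 67.4 and 83.9 CPM in 2n-whole of mice 1 to 4 and 71.6, 195 and 251 CPM in 4n-top of mice 2, 3 and 4. 4n-top of mouse 2 thus lay within the 2n-whole range, and the log2 fold change was 1.17 (SE 0.207, adjusted p = 0.00122). The calls for Slc1a2, Slc13a3, Ahr and Lhpp were lost when mouse 3 was left out.

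Glul, the glutamine synthetase of the cells next to the central vein, was not called against 2n-whole. It had 29.1, 24.02, 42.95 and 66.8 CPM in 2n-whole of mice 1 to 4, and 26.1, 64.6 and 105 CPM in 4n-top of mice 2, 3 and 4. The groups overlapped, and the log2 fold change was 0.53 (SE 0.157, adjusted p = 0.12). In 4n-bottom, the 4n cells with the lower Hoechst peak, Glul had 85.1, 41.0, 141 and 210.5 CPM in mice 1 to 4. Glul was 1 of 2 genes called between 4n-top and 4n-bottom (log2 fold change -0.90, adjusted p = 0.0499).

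**Figure D2:**
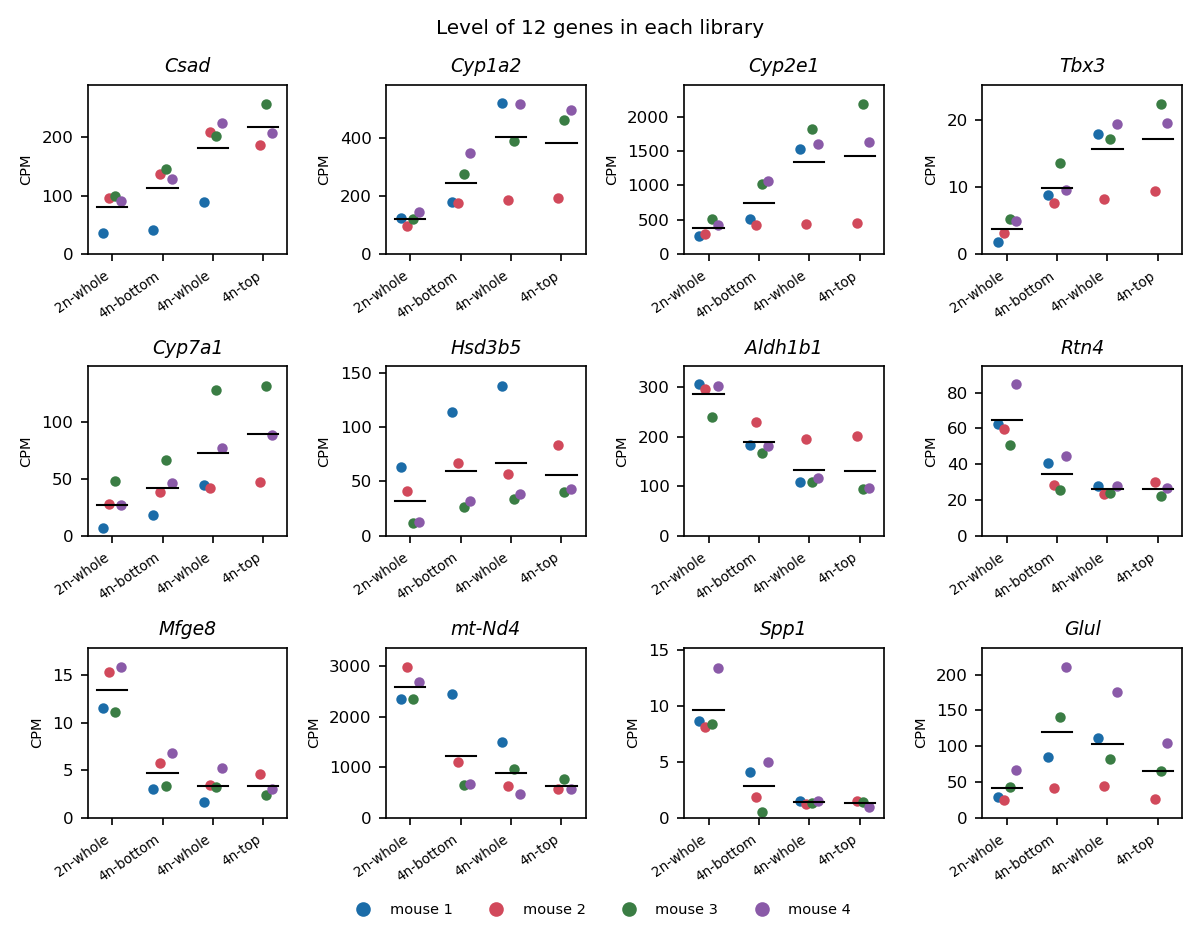
CPM on a linear axis that starts at 0, for 12 genes in the 15 libraries of the 4 sorted populations, with 1 point per library coloured by mouse and a bar at the mean of the population. In 4n-top of mouse 2, Cyp1a2, Cyp2e1 and Tbx3 were below the other 4n-top libraries (Cyp2e1 448 against 1637 and 2188 CPM), and the 4n-bottom means lay between 2n-whole and 4n-top except for Hsd3b5 and Glul.

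Periportal genes were called in both directions, mostly lower. Of 28 tested periportal genes, 4 were called lower, 1 was called higher and 23 did not pass the test, with a median change of -0.18 and 22 of the 28 below 0. The calls over all tested genes were 0.52% lower and 0.44% higher. Apoa4, an apolipoprotein of chylomicrons and HDL, had 50.4, 50.25, 41.98 and 83.8 CPM in 2n-whole of mice 1 to 4 and 29.8, 18.95 and 31.65 CPM in 4n-top of mice 2, 3 and 4. The groups did not overlap, and Apoa4 fell by 1.10 on the log2 scale (SE 0.138, adjusted p = 1.42e-05). Hsd17b6, a steroid dehydrogenase, fell by 0.71, from between 193 and 284 CPM to between 107 and 160 CPM. Ctsc, a lysosomal protease, fell by 0.84 and Cdh1, E-cadherin, fell by 0.58, and both calls were lost without mouse 4. Igfbp1, an insulin-repressed binding protein of growth factors, rose by 0.65, again not without mouse 4. The landmark enzymes were not called: the fitted log2 change was -0.05 for Ass1, of the urea cycle (adjusted p = 0.89), and -0.47 for Cyp2f2, a periportal P450 (adjusted p = 0.0571). In mouse 2 the median of the periportal list was -0.05, beside -0.19 in mouse 3 and -0.36 in mouse 4.

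Midlobular genes were split by sign, with a change above 0 in 3 of the 6 tested. Cyp8b1, the sterol 12-alpha-hydroxylase, and Igfbp2, another binding protein of growth factors, were called higher among 6 tested. The share called higher over all tested genes was 0.44%. The summed level of the list was lower in 4n-top, at 6356 to 6837 CPM in 2n-whole and 5131 to 5856 CPM in 4n-top, without overlap. Cyp8b1 and Igfbp2 averaged 177 and 220 CPM in 2n-whole, so the sum rested mostly on other members of the list. Igfbp2 had 261, 194, 199 and 227 CPM in 2n-whole of mice 1 to 4 and 357.5, 360 and 406 CPM in 4n-top of mice 2, 3 and 4. This was an even rise, with log2 ratios of 0.88, 0.85 and 0.84 in mice 2, 3 and 4 (log2 fold change 0.85, SE 0.0936, adjusted p = 2.59e-06). Mup3, also midlobular, was not called (log2 fold change -0.44, adjusted p = 0.0785), nor was Hamp, the iron hormone hepcidin (0.47, adjusted p = 0.15).

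Of 53 tested P450 genes and partners, 12 were called higher and 0 lower, where 0.44% and 0.52% of all tested genes were. The change was above 0 in 30 of the 53, with a median of 0.12, and at an unadjusted p under 0.05 there were 18 higher and 9 lower genes. The median was 0.12 in mouse 2, 0.16 in mouse 3 and -0.04 in mouse 4. Beside the pericentral members above, these were Cyp2c29, Cyp2c37, Cyp2c40, Cyp2c50, Cyp2c54, Cyp2c67 and Cyp2c68, Cyp26a1, which degrades retinoic acid, and Por, the reductase that supplies P450 enzymes with electrons, whose call was lost without mouse 4. The 7 Cyp2c genes lie on chromosome 19 in a cluster of close paralogs, so reads may have been shared among them. Cyp2c50 had 117, 118, 134 and 186 CPM in 2n-whole of mice 1 to 4 and 194, 475 and 499 CPM in 4n-top of mice 2, 3 and 4. Its groups did not overlap, and its log2 fold change of 1.39 (SE 0.175, adjusted p = 1.42e-05) lay within the range of 0.77 to 1.78 for the 7 genes. Nr1i3, the nuclear receptor CAR that induces drug-metabolizing enzymes, rose by 1.16 (adjusted p = 0.000158), with 2.83 to 17.3 CPM in 2n-whole and 9.05 to 35.01 CPM in 4n-top. Rgn, the calcium-binding protein regucalcin, which is no list member, rose by 1.56 from between 73.1 and 102 CPM to between 158 and 351 CPM, without overlap. Conjugating enzymes changed in both directions: of 51 tested, 22 had a change above 0, with a median of -0.02. At an unadjusted p under 0.05 there were 9 higher and 8 lower genes. Of the 51, 0 were called higher and 2 lower, where 0.961% of all tested genes were called. The called genes were Ugt2b38 (a glucuronosyltransferase, log2 fold change -1.15) and Sult5a1 (a sulfotransferase, -0.81, not without mouse 3 or mouse 4).

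For bile acid synthesis, 4 of 19 tested genes were called higher, 0 lower, and 18 of 19 had a change above 0, with a median of 0.18. Over all 17488 tested genes, 0.44% were called higher and 8751 genes had a change above 0. Cyp7a1, the rate-limiting enzyme of the classic route, had 6.61, 28.0, 48.1 and 26.9 CPM in 2n-whole of mice 1 to 4. In 4n-top it had 47.2, 131 and 88.4 CPM in mice 2, 3 and 4. The groups overlapped only through mouse 2 in 4n-top and mouse 3 in 2n-whole, and the log2 fold change was 1.48 (SE 0.197, adjusted p = 2.81e-05). Cyp27a1, which starts the alternative route, rose more evenly, from between 169.5 and 200.2 CPM to between 256 and 339 CPM without overlap (log2 fold change 0.71, SE 0.0885, adjusted p = 1.42e-05). Cyp8b1, which sets the share of cholic acid, rose by 0.89 and Akr1c6, a hydroxysteroid dehydrogenase, rose by 0.94. Receptors that control the pathway were not called, with a log2 fold change of 0.05 for Nr1h4 (FXR, adjusted p = 0.92) and -0.17 for Nr0b2 (SHP, adjusted p = 0.72). Of 24 transporters of bile acids and drugs, 1 was called, Slco1a1, with a log2 fold change of 0.57 (adjusted p = 0.0425). This call was lost without mouse 1, 3 or 4, and DESeq2 called 0 of the 24.

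Of 17 tested genes of the growth hormone axis, 2 were called higher, 0 lower and 15 did not pass the test, with a median change of 0.08 and an unadjusted p under 0.05 for 3 higher and 2 lower genes. Among all tested genes, 0.961% were called and 11.3% had an unadjusted p under 0.05. Hsd3b5, a male-specific 3-ketosteroid reductase, had 63.1, 41.0, 11.7 and 12.5 CPM in 2n-whole of mice 1 to 4 and 83.5, 40.6 and 43.5 CPM in 4n-top of mice 2, 3 and 4. The groups overlapped widely because the mice differed, and within each pair 4n-top was higher (log2 fold change 1.48, SE 0.145, adjusted p = 9.50e-07). Elovl3, a fatty acid elongase, had 101, 148, 83.1 and 56.3 CPM in 2n-whole of mice 1 to 4 and 228, 262 and 209 CPM in 4n-top of mice 2, 3 and 4, without overlap. Elovl3 rose by 1.39 (SE 0.152, adjusted p = 2.55e-06). The major urinary proteins, pheromone carriers that the liver secretes, were called in both directions: Mup7, Mup11 and Mup17 higher, Mup20 and Mup21 lower, of 20 tested. The higher calls were less firm, since Mup7 lost its call without mouse 4, Mup11 without mouse 1 or 4 and Mup17 without mouse 1, 3 or 4, and DESeq2 called only Mup11 of them. Mup20 and Mup21 kept their calls without each mouse and with DESeq2. Mup20 (darcin) had 1791, 2179, 1887 and 1923 CPM in 2n-whole of mice 1 to 4 and 1396, 906 and 874 CPM in 4n-top of mice 2, 3 and 4. Its groups did not overlap, and it fell by 0.89 on the log2 scale (SE 0.116, adjusted p = 1.95e-05). The Mup genes are near-identical copies on chromosome 4 and Mup20 overlaps Mup3 in the annotation, so the split of reads between copies is uncertain. Ang and Rnase4, ribonuclease genes that share a start and exons on chromosome 14, rose by 1.24 and 1.07, and their reads cannot be fully told apart.

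Transcripts of the mitochondrial genome were lower in 4n-top. Of the 13 protein-coding genes, 11 were called lower, and mt-Nd4l and mt-Atp8 were not (log2 fold change -1.80 with adjusted p = 0.0638, and -1.17 with adjusted p = 0.576). Among all tested genes, 0.52% were called lower. Both mitochondrial ribosomal RNAs and the transfer RNA gene mt-Tp were also called lower, which made 14 of the 91 lower genes. mt-Nd4, a subunit of complex I, had 2360, 2993, 2351 and 2693 CPM in 2n-whole of mice 1 to 4 and 568.5, 758 and 571 CPM in 4n-top of mice 2, 3 and 4. All 4n-top libraries were far below all 2n-whole libraries, with a log2 fold change of -1.88 (SE 0.244, adjusted p = 1.95e-05). The summed level of the 13 genes was 33140 to 42700 CPM in 2n-whole and 12510 to 16000 CPM in 4n-top.

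All reads on the mitochondrial genome made up 20.5%, 23.2%, 26.2% and 26.0% of the counts in 2n-whole of mice 1 to 4. They made up 11.9%, 13.02% and 12.7% in 4n-top of mice 2, 3 and 4. The shares did not overlap (two-sided exact permutation test over 35 splits, p = 0.0286, the smallest p that 3 against 4 libraries allow). This test does not use the pairing by mouse, and exchange within the 3 pairs would allow only 8 assignments. For reads on nuclear ribosomal RNA the same exact permutation test gave p = 0.457. The mitochondrial share was not alike in all 4n libraries: 4n-bottom of mouse 1 had 23.6%, within the 2n-whole range, and the other 4n-bottom libraries had 12.2% to 15.0%. In mouse 1 the 4n-bottom share was thus above the 20.5% of its own 2n-whole library. The 4n-whole libraries had 18.5%, 8.84%, 15.7% and 11.0% in mice 1 to 4. Mouse 1 gave no 4n-top library, so the comparison of 4n-top does not cover its 4n cells. Nuclear genes for respiratory chain subunits did not move with the mitochondrial genome, as 0 of 75 were called in either direction by edgeR (unadjusted p under 0.05 for 9 higher and 1 lower, and 0 called by DESeq2) and their median change was 0.05. Without ribosomal and mitochondrial genes, 151 genes were called (75 higher, 76 lower), all of them among the 168. The unprocessed pseudogenes Gm28661, Gm28439 and Atp6-ps, copies of mitochondrial genes, were also called lower and may share reads with the mitochondrial genome.

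**Figure D3:**
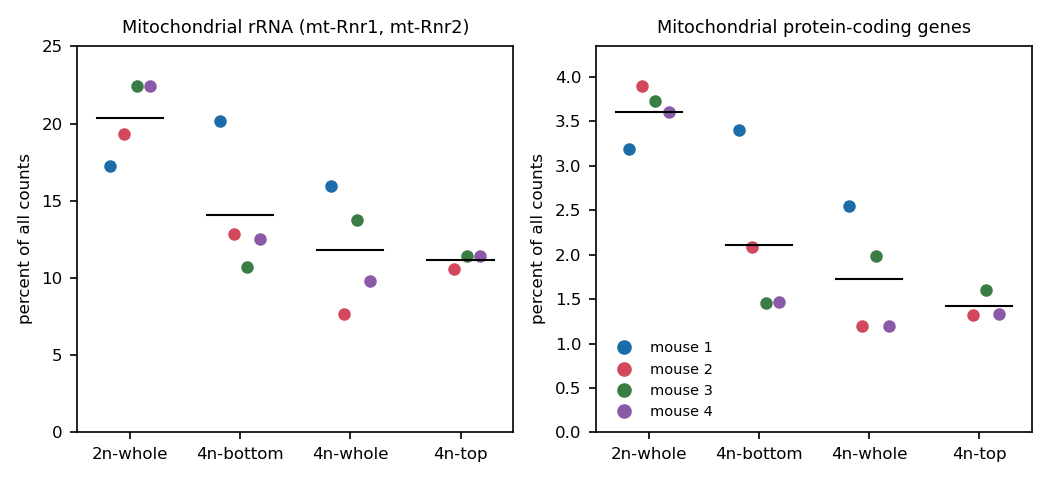
Percent of all counts on mitochondrial ribosomal RNA (left) and on the 13 mitochondrial protein-coding genes (right) for the 15 libraries, 1 point per library coloured by mouse, with bars at the mean of each population. The 3 4n-top libraries lay at 10.6% to 11.42% and 1.32% to 1.6%, below all 4 2n-whole libraries (17.3% to 22.5% and 3.19% to 3.90%), while mouse 1 was the highest library in 4n-bottom and 4n-whole.

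Outside the mitochondrial genome, Aldh1b1 and Rtn4 had the smallest p-values among the lower genes. Aldh1b1 (chr4:45798886-45804604), a mitochondrial aldehyde dehydrogenase, had 306.5, 296, 240 and 303 CPM in 2n-whole of mice 1 to 4. It had 201, 94.6 and 97.1 CPM in 4n-top of mice 2, 3 and 4. The groups did not overlap, with the smallest drop in mouse 2, and the log2 fold change was -1.24 (SE 0.138, adjusted p = 2.99e-06). Rtn4 (chr11:29642313-29694331), the endoplasmic reticulum protein Nogo, had 62.7, 59.96, 50.8 and 84.6 CPM in 2n-whole of mice 1 to 4 and 30.1, 22.04 and 26.5 CPM in 4n-top of mice 2, 3 and 4. Its groups were well apart, and its log2 fold change was -1.24 (SE 0.139, adjusted p = 2.99e-06). The lipase-like Abhd2, the serum protein gene Itih5 and Ly6e, an interferon-induced membrane protein, fell by 0.90, 0.99 and 0.95.

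Other lower genes, of which Fgfr1, Fgfr2 and Hes1 were chosen after their values were seen, are described singly. Fgfr1, a receptor of fibroblast growth factors, had 24.8, 18.6, 18.3 and 13.05 CPM in 2n-whole of mice 1 to 4 and 8.84, 6.21 and 1.88 CPM in 4n-top of mice 2, 3 and 4, without overlap. It fell by 1.79 (SE 0.248, adjusted p = 5.18e-05), while Fgfr2 fell by 0.85 (adjusted p = 0.000314) with overlapping groups. The annotated span of Fgfr2 reaches over Oat on the same strand, so some reads may be shared. Hes1, a target of Notch signalling, fell by 0.94 (adjusted p = 0.00116), and Klf6, an early response factor, fell by 1.32 (adjusted p = 6.32e-05). Cd36, the fatty acid translocase, had 32.2, 30.4, 31.3 and 45.3 CPM in 2n-whole of mice 1 to 4 and 8.565, 15.3 and 21.7 CPM in 4n-top of mice 2, 3 and 4. Its groups did not overlap (log2 fold change -1.23, SE 0.226, adjusted p = 0.00211).

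Some matrix and adhesion genes were lower. Of 34 tested matrix and adhesion genes, 4 were called lower and 0 higher (DESeq2 7 and 0). Over all 17488 tested genes, edgeR called 0.52% lower and DESeq2 called 234 genes lower. The summed level of the list overlapped between the groups, at 7141 to 7399 CPM in 2n-whole and 6874 to 7889 CPM in 4n-top. Their median change was -0.78, and -0.21 over the 19 with a mean of at least 1 CPM, for which the median over all tested genes was 0.0293. Mfge8, a secreted glycoprotein that bridges phagocytes to dying cells, had 11.6, 15.36, 11.1 and 15.8 CPM in 2n-whole of mice 1 to 4 and 4.55, 2.38 and 3.03 CPM in 4n-top of mice 2, 3 and 4. Spp1, the matrix protein osteopontin, had 8.60, 8.12, 8.35 and 13.4 CPM in 2n-whole and 1.501, 1.41 and 0.976 CPM in 4n-top. In both genes every 4n-top library was below every 2n-whole library. The log2 fold changes were -2.21 for Mfge8 (SE 0.255, adjusted p = 4.93e-06) and -2.73 for Spp1 (SE 0.43, adjusted p = 0.000266). Nid1, a basement membrane protein, fell by 1.92 and Itga6, a laminin receptor, fell by 1.35, the latter not without mouse 2 or mouse 4. Among the abundant matrix genes that hepatocytes make, Fn1 (fibronectin) ranged from 2862 to 3244 CPM in 2n-whole and from 2668 to 3262 CPM in 4n-top.

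The summed markers of cholangiocytes, the cells of bile ducts, were at 80.4 to 93.4 CPM in 2n-whole and 52.2 to 74.2 CPM in 4n-top. The groups did not overlap, and of the 8 tested markers 1 was called, Spp1. All 8 had a change below 0 and 7 had an unadjusted p under 0.05, while DESeq2 also called Krt19 and Bicc1 lower. The defining markers Epcam, Krt19 and Cftr were at 0 in all 3 4n-top libraries and at 1.33 CPM or less in every 2n-whole library. These 3 passed the filter on low counts without any 4n-top count, so their sign was fixed in advance and adds no support. The 5 tested markers with a mean of at least 1 CPM had a median change of -0.44. Leukocyte markers were at 2.91 to 3.62 CPM in 2n-whole and 0.508 to 2.54 CPM in 4n-top, with 4 of 15 tested and 0 called by edgeR or DESeq2 (0 at an unadjusted p under 0.05). Endothelial markers were at 22.4 to 34.4 CPM and 8.57 to 27.4 CPM, and here 4n-top of mouse 2 lay within the 2n-whole range. None of the 15 endothelial markers was called by edgeR, 5 were lower at an unadjusted p under 0.05, and DESeq2 called Cdh5, Ehd3 and Stab1 lower. Kupffer cell and macrophage markers (0.764 to 11.7 CPM, and 0.743 to 3.49 CPM) and stellate cell markers (4.19 to 7.93 CPM, and 2.31 to 4.73 CPM) overlapped between the groups, with 0 called of 9 and 8 tested by edgeR or DESeq2 (unadjusted p under 0.05 for 4 and 0). Hepatocyte markers summed to 105400 to 115700 CPM and 91330 to 123300 CPM, with 0 of 14 called by edgeR or DESeq2 (unadjusted p under 0.05 for 4) and a median change of 0.02, so the labelled cell type held in both groups. The part of other cells in the lower matrix genes was not tested, and fewer such cells and less RNA per cell cannot be told apart in sorted bulk RNA.

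**Figure D4:**
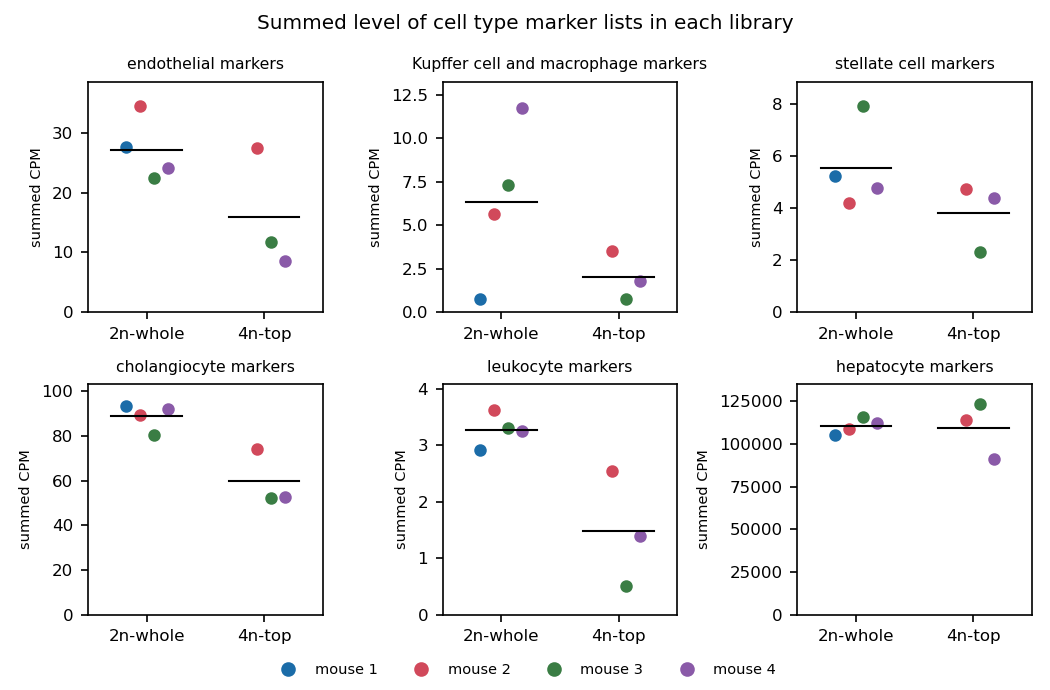
Summed CPM of 6 cell type marker lists in the 7 compared libraries, 1 point per library coloured by mouse, on linear axes that start at 0, with bars at group means. Cholangiocyte and leukocyte markers did not overlap between the groups, endothelial, Kupffer and stellate markers did, and hepatocyte markers were at 91330 CPM or more in every library.

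None of the 10 urea cycle, 42 amino acid breakdown, 17 gluconeogenesis and glycogen, 25 fatty acid synthesis, 41 complement and coagulation, 38 plasma protein or 19 clock genes was called by edgeR, and their medians lay between -0.05 and 0.06. In the same order, 1, 10, 7, 5, 10, 11 and 4 of them had an unadjusted p under 0.05, where 11.3% of all tested genes did. With 0.961% of all tested genes called, lists of these sizes would hold few calls, and 0 calls do not show that their genes were unchanged. DESeq2 called 1, Ppargc1a, a coactivator of gluconeogenesis, lower. Of 44 fatty acid oxidation genes, Acot1, an acyl-CoA thioesterase, and Aldh3a2, a fatty aldehyde dehydrogenase, were called higher and Cd36 lower. The change was above 0 in 31 of the 44, with a median of 0.12, and the unadjusted p by edgeR was under 0.05 for 11 higher and 1 lower. Aldh3a2 had 10.9, 28.3, 29.1 and 34.4 CPM in 2n-whole of mice 1 to 4 and 39.04, 96.8 and 122 CPM in 4n-top of mice 2, 3 and 4. It rose without overlap (log2 fold change 1.51, SE 0.236, adjusted p = 0.000246), with the smallest rise in mouse 2. Blvrb, a biliverdin reductase, was the 1 called gene of 23 for iron and heme, at 0.68, and lost its call without mouse 3 or mouse 4. Apoa4 was the 1 called gene of 20 for apolipoproteins and lipoprotein assembly, and Hspa1b (a heat shock protein, 1.09, not without mouse 3) and Klf6 were the 2 of 25 immediate early and stress genes. Of 20 hepatocyte transcription factors, Tbx3 and Nr1i3 were called, and of 33 interferon and MHC genes Ly6e was.

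For genes of the cell cycle and of ploidy control, too, 0 calls at an overall share of 0.961% do not show that they were unchanged. Of 32 DNA replication, 29 mitosis and cytokinesis, 24 p53 and ploidy control and 15 Hippo pathway genes tested, edgeR called 0, and the unadjusted p was under 0.05 for 4, 1, 2 and 4 of them, a share that was 11.3% over all tested genes. DESeq2 called 1 replication gene (Pola1) and 1 Hippo gene (Amotl1) lower, and 0 in the other 2 lists. Mitotic genes were at low levels, with a mean of at least 1 CPM for 7 of the 29. The fitted log2 change was 0.46 for Cdkn1a, the cyclin-dependent kinase inhibitor p21 (adjusted p = 0.58), and -0.27 for Trp53 (adjusted p = 0.67). Transcripts retained in the nucleus showed no called gene among 8 by edgeR or DESeq2 (unadjusted p under 0.05 for 2), with a log2 fold change of 0.10 (adjusted p = 0.81) for Malat1. Cytosolic ribosomal protein genes showed small changes of 1 sign. Of 77, 72 had a change above 0 and 28 of them had an unadjusted p under 0.05, but 0 were called by edgeR or DESeq2, with a median of 0.21 and a highest change of 0.46. Their summed level was 6167 to 7586 CPM in 2n-whole and 7915 to 9337 CPM in 4n-top.

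**Figure D5:**
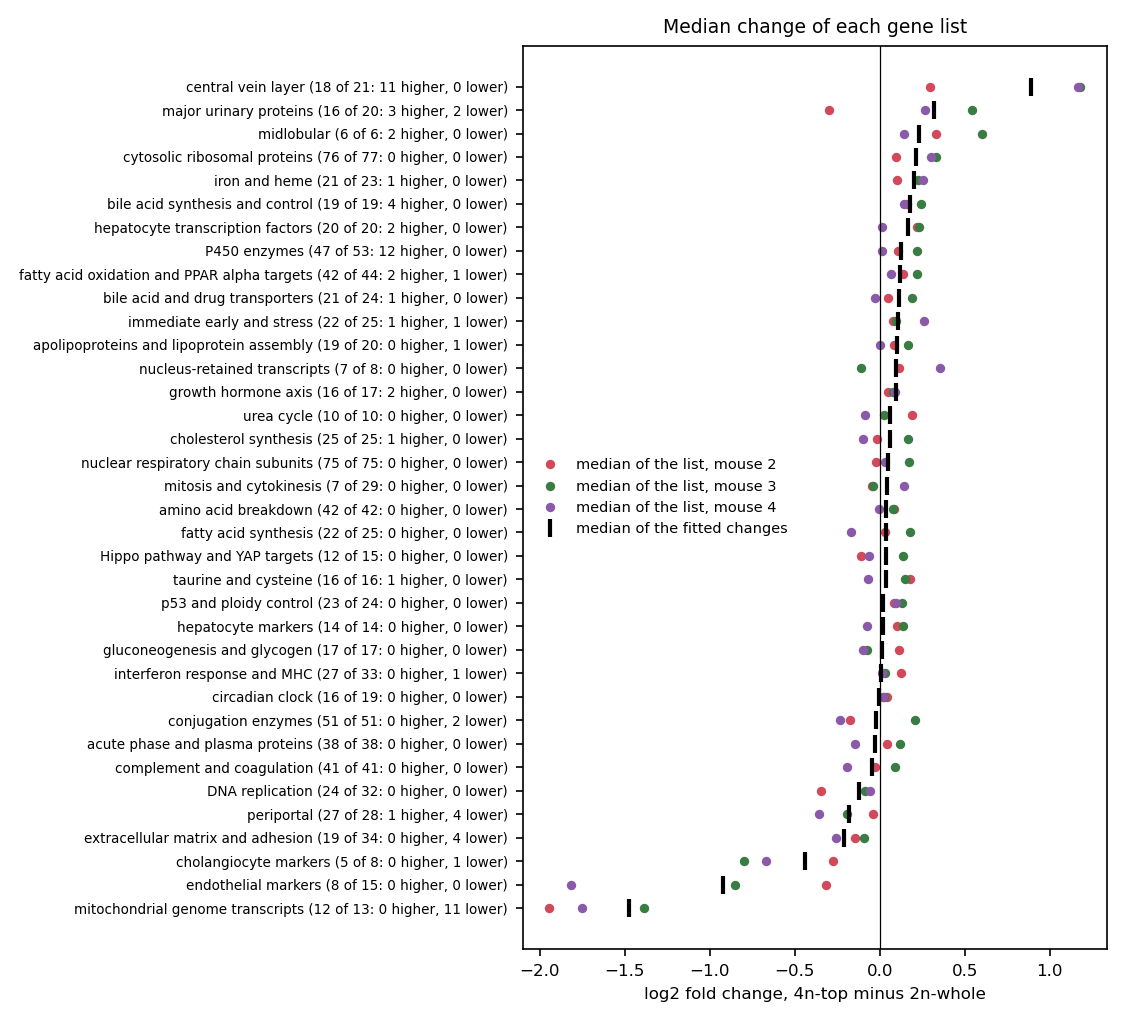
Median log2 fold change of 4n-top over 2n-whole for each gene list with at least 5 tested members at a mean of 1 CPM or more, over these members. Black bars are medians of the fitted changes and coloured points are medians of the log2 ratios within mice 2, 3 and 4, and each label gives the members plotted, the members tested and the members called. The central vein layer lay highest (0.89, and 0.29 in mouse 2) and the mitochondrial genome lowest (-1.47).

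The paired mice did not differ by the same amount. The median log2 ratio of the 77 higher genes was 0.68 in mouse 2, 1.15 in mouse 3 and 1.17 in mouse 4, while over all tested genes it was 0.01, 0 and 0. For the 91 lower genes it was -0.996, -1.19 and -1.43. For the central vein layer it was 0.29 in mouse 2, 1.11 in mouse 3 and 0.99 in mouse 4. For mitochondrial genes the order was different, with -1.94 in mouse 2, -1.37 in mouse 3 and -1.77 in mouse 4. Since these ratios enter the test that chose the genes, they describe its calls and are not a separate test.

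The other 4n populations showed where the 4n-top level stood among 4n cells. These comparisons share the 4n-top or the 2n-whole libraries, so the values are set side by side only. Between 4n-top and 4n-bottom 2 genes (0.0114%) were called, Csad and Glul, with 488 at an unadjusted p under 0.05, and between 4n-top and 4n-whole 0 genes were called by edgeR, with 700 at an unadjusted p under 0.05. DESeq2 called 49 and 40 genes in these comparisons. For all 77 higher and all 91 lower genes, the means of 4n-bottom and of 4n-whole lay on the same side of the 2n-whole mean as 4n-top. Of the 17488 tested genes, 8789 had a 4n-bottom mean above the 2n-whole mean and 8503 a 4n-whole mean above it. Those 2 counts take no account of the direction of 4n-top, and the share on the 4n-top side was not computed over all tested genes. The called genes were chosen with the same 2n-whole and 4n-top libraries, so these counts are a description. The 4n-bottom mean lay between 2n-whole and 4n-top for 68 of the 77 and 90 of the 91. Choosing genes by a 4n-top level far from 2n-whole favours such an order, so it is no separate result. Of the 17488 tested genes, 4021 had a 4n-bottom mean above 2n-whole and below 4n-top. The falling order was not counted over all tested genes, so 4021 is no background for the 91 lower genes. The mean Csad level was 217 CPM ± 36.4 (SD, n = 3) for 4n-top and 80.5 CPM ± 30.03 (SD, n = 4) for 2n-whole. Among the other 4n cells, those of 4n-whole averaged 181 CPM ± 62.01 (SD, n = 4) and those of 4n-bottom averaged 113 CPM ± 48.6 (SD, n = 4). It was higher in 4n-top than in 4n-bottom (log2 fold change 0.72, adjusted p = 0.0098). These means of 4n-bottom include mouse 1, which has no 4n-top library. Hsd3b5 was outside the order by its means, yet within mice 2, 3 and 4 its 4n-bottom levels of 67.4, 26.3 and 32.4 CPM lay between 2n-whole and 4n-top in every mouse. Another exception was Slc1a2, which was higher in 4n-bottom (38.96 ± 26.7 CPM, SD, n = 4) than in 4n-top (21.4 ± 14.7 CPM, SD, n = 3) without passing the test (adjusted p = 0.0663).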

How the data were processed

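RNA from sorted hepatocytes was made into libraries with the SMART-Seq Stranded kit. Per the labels, the authors aligned reads to GRCm39 with STAR 2.7.11a and counted them with featureCounts, and the deposited values are counts per gene symbol, not normalized. The annotation, the strand setting and the treatment of read pairs are not given in the sources used here. Between 74.2% and 81.4% of counts from 1 to 10 were even, so a count may not be a whole fragment. The CPM given for a count of 3 takes each count as it stands. SE values come from the fitted model, which includes the spread between libraries. Total counts were 31814400 to 42096421 in 2n-whole and 25588972 to 41438193 in 4n-top.

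Counts were analysed with edgeR 4.0.16 in R 4.3.3: TMM, filterByExpr (minimum count 10, minimum total 15), a model of the 15 libraries with terms for population and mouse (the replicate block), and a quasi-likelihood F test. The libraries share 1 estimate of the spread. Replicates are separate mice. The study's methods name the mouse as batch. Residuals of 4n-top and 2n-whole from the same mouse correlated across genes at 0.137, 0.15 and 0.105 in mice 2, 3 and 4. Log2 ratios within a mouse used a prior count of 2. The script was tested on simulated data.

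Named genes are the 12 smallest p-values in each direction with the same sign in 3 mice, the 5 largest differences in CPM, called list members and up to 3 smallest p-values per list, and landmarks. Fgfr1, Fgfr2, Hes1 and Rgn, the uncalled list members Axin2, Lgr5, Nr1h4, Nr0b2, Cdkn1a, Trp53, Fn1, Pola1, Amotl1, Ppargc1a, Cdh5, Ehd3, Stab1, Bicc1, Epcam, Krt19, Cftr, mt-Nd4l and mt-Atp8, and 3 mitochondrial copies, were named after their values were seen, and the limit of 1 CPM for list medians was also set then. The members, lists and comparisons were chosen with earlier results of these data known. Positions are from GENCODE M39, which placed 55865 of 55984 symbols. Alternatives were no block, the 7 libraries alone, DESeq2 1.42.0 size factors or test, ComBat-seq (sva 3.50.0) followed by DESeq2, which is the route of the study, no filter, no fold limit, ribosomal and mitochondrial genes left out, halved counts and each mouse left out. The result for 1 called gene is not reported here.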

Additional observations from a re-analysis of the deposited data

Results flagged for a closer look

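In the 4 libraries of 2n-whole, 124 sets of 4 values (named genes, list sums and library measures) were searched for a highest or lowest library separated from the others by more than Dixon's limit for 4 values. This was found for 10 sets (8.06%), where chance flags about 5%. 2n-whole of mouse 1, which has no 4n-top partner, stood apart for Csad (35.7 CPM, the others 91.1 to 99.1), Ugt2b38 (91.2 CPM, the others 34.0 to 42.8) and Mup11 (17.5 CPM, the others 6.96 to 7.93). 2n-whole of mouse 4 stood apart for Mup21 (65.7 CPM, the others 197 to 213), Cd36 (45.3 CPM, the others 30.4 to 32.2) and Spp1 (13.4 CPM, the others 8.12 to 8.60). 2n-whole of mouse 3 was low for Aldh1b1 (240 CPM, the others 296 to 306.5) and for the summed ribosomal protein genes (6167 CPM, the others 7354 to 7586). 2n-whole of mouse 2 was low for Cyp2c68 (52.9 CPM, the others 71.4 to 73.0) and for the summed midlobular genes (6356 CPM, the others 6761 to 6837). Csad kept its call without each mouse in turn, with a log2 fold change of 1.05 to 1.25. Ugt2b38, Aldh1b1, Mup21, Cd36, Spp1 and Cyp2c68 also kept their calls without each mouse, and Mup11 lost its call without mouse 1 or mouse 4. The causes were not tested.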

How the results depend on the processing

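Against 168 called genes (77 higher, 91 lower), 2 were called with no replicate block (1 higher, 1 lower), 300 with the replicate block in the 7 compared libraries alone (120 and 180), 20 there without the block (3 and 17), 261 with no filter on low counts (147 lower), 329 with DESeq2 and the block (95 and 234) and 595 with ComBat-seq followed by DESeq2 (202 and 393). Leaving out each mouse in turn gave 98 to 238 called genes, 45 to 108 higher and 53 to 130 lower, with the lowest values without mouse 4. The cause of these differences was not tested. The 2 genes called without the block were both among the 168, as were 159 of the 300, 161 of the 329 and 165 of the 595. The mouse term pairs libraries of the same animal, and list counts fell without it: 11 to 1 for the central vein layer and 11 to 0 for the mitochondrial genome. The share of higher genes was 45.8% and moved by over 10 points to 15.0% without the block in the 7 libraries, 28.9% with DESeq2 and 33.9% with ComBat-seq. Of 1093 values for 79 named genes, 913 kept direction and call, 168 kept the direction and lost the call, 9 gained a call and 3 turned, all without mouse 4. With 1 mouse left out, fitted log2 changes ran from -0.14 to 0.024 for Ass1, from -0.21 to 0.026 for Alb and from -0.11 to 0.24 for Malat1, none of them called. With 3 4n-top libraries, exact tests cannot go below a p of 0.0286.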

Other observations

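Among called genes outside the lists, several rose at low levels. Cldn2, a tight junction protein that lets cations and water pass, had 8.18, 13.3, 3.76 and 6.49 CPM in 2n-whole of mice 1 to 4 and 22.2, 18.5 and 28.4 CPM in 4n-top of mice 2, 3 and 4. The groups did not overlap, and within pairs the log2 ratio was smaller in mouse 2 (0.73) than in mice 3 and 4 (2.28 and 2.12). The fitted change was 1.72 (SE 0.221, adjusted p = 1.72e-05, edgeR). Avpr1a, a vasopressin receptor, had 1.55, 1.33, 4.38 and 4.37 CPM in 2n-whole and 3.85, 13.8 and 14.8 CPM in 4n-top, so that 4n-top of mouse 2 lay within the 2n-whole range. Its log2 fold change was 1.83 (SE 0.239, adjusted p = 2.18e-05). Slc25a21, a mitochondrial oxodicarboxylate carrier, was even within the groups, with 3.08 to 4.74 CPM in 2n-whole and 8.05 to 8.98 CPM in 4n-top (log2 fold change 1.07, adjusted p = 0.0101).

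Among the lower genes, Aqp4, a water channel, had 22.4, 17.0, 12.7 and 19.4 CPM in 2n-whole of mice 1 to 4 and 7.85, 8.75 and 4.25 CPM in 4n-top of mice 2, 3 and 4, without overlap. It fell by 1.29 (SE 0.222, adjusted p = 0.000829). Elapor1, a protein of endosomes and lysosomes, had 2.49, 0.785, 2.19 and 4.02 CPM in 2n-whole and 0, 0.0782 and 0.279 CPM in 4n-top. 2 of these 3 libraries were below the level of 3 counts (0.0693 to 0.117 CPM), so the size of its fitted change is not given. Inhba, the activin subunit, ranged widely between mice, with 14.9 to 65.4 CPM in 2n-whole and 7.86 to 36.3 CPM in 4n-top, and was called through the pairs (log2 fold change -0.80, adjusted p = 0.00623). These genes were named after their values were seen.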
